A study of Saccharomyces cerevisiae with 4 samples.

Results

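The genes described here encode the machinery of mRNA decay in budding yeast: the decapping enzyme and its activators, the Lsm rings, the deadenylases, the nonsense-mediated decay factors, the Ski complex with the ribosome rescue factors, the Puf RNA-binding proteins and the 5' to 3' exonucleases. The 47 genes were listed by name and function, with no threshold on a measured value, although earlier results of these data were known when the list was drawn up. All 47 had a probe set, among 5449 Saccharomyces cerevisiae genes tested. Each gene was represented by 1 probe set, and 0 of the 47 sets carried an identifier that marks cross-hybridisation. RNA came from 4 cultures grown to mid-log phase at 30 °C in synthetic drop-out medium that selected for the DIS3 allele, 2 of wild type and 2 of the dis3E729K mutant. Per the labels, both genotypes had the BY4741 background and a URA3 marker next to DIS3, which encodes the 3' to 5' ribonuclease of the RNA exosome. The values are log2 intensities of 1-colour Affymetrix arrays, 1 array per culture, and a difference is mutant minus wild type unless stated otherwise.

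A yeast mRNA usually loses its poly(A) tail first, through the Pan2-Pan3 and Ccr4-Not deadenylases. The shortened message is then either decapped by Dcp1-Dcp2, with help from Pat1, Dhh1, the Lsm1-7 ring and the Edc proteins, and degraded from the 5' end by Xrn1, or degraded from the 3' end by the cytoplasmic exosome, to which the Ski complex feeds RNA. Dis3 is the catalytic subunit on that second route, so the 5' to 3' factors belong to the parallel route and the Ski proteins to the same route as the mutated enzyme. Upf1, Upf2 and Upf3 direct messages with premature stop codons to decapping, Dom34 and Hbs1 release stalled ribosomes, and Puf proteins bind the 3' untranslated regions of their targets and recruit decay factors.

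Several measurements of the whole series bear on the values below. The 4 arrays did not match the single background strain of the labels. Of 6 genes specific to mating type a, such as STE2 and MFA2, 6 were brighter in both replicate 1 cultures than in both replicate 2 cultures, and of 5 genes specific to mating type alpha, such as STE3 and MF(ALPHA)1, 5 showed the reverse, so each genotype held 1 culture of either kind. STE2, the alpha-factor receptor, read 12.26 and 12.58 in replicate 1 of wild type and mutant and 7.01 and 6.81 in replicate 2. MET17 is deleted in BY4741, and its probe set had a log2 intensity of 9.55 for wild type replicate 2 against 3.22 to 3.47 elsewhere. Differences are therefore also given within each replicate number, and values without single arrays are given where they change a call. Signal of ribosomal RNA was also higher in the mutant on each of 17 control sets, by a median of 0.42 log2 units, and its part in the results was not tested. DIS3 itself read 11.65 and 11.82 in wild type and 11.49 and 11.12 in the mutant, a difference of -0.43 ± 0.18 (SE) that did not pass limma's test (adjusted p = 0.154). A level of DIS3 mRNA does not check a missense allele.

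Comparison of the genotypes asks whether the genes of the decay pathways shift when the ribonuclease of the exosome is altered. Few of them passed an adjusted threshold. By an unadjusted p or by overlap of the arrays, the share that differed was near that of all genes. EDC2, an enhancer of decapping, and JSN1, the Puf protein also known as Puf1, rose in the mutant, and 0 of the 47 genes fell, in limma's test at a Benjamini-Hochberg adjusted p under 0.05 over all 5449 genes. These 2 genes are 4.26% of the members, where 15.9% of all genes tested passed, 7.71% of them higher and 8.15% lower. With no adjustment, 8 members had a p under 0.05 on the higher side and 10 on the lower side, together 38.3%. Of all genes, 18.1% and 22.6% did in the 2 directions, together 40.7%. The median difference was -0.14 over the 47 genes and -0.073 over all genes, and the median absolute difference was 0.31 and 0.39. Only EDC2 differed by 1 log2 unit or more, 2.13% of the members beside 14.7% of all genes, while 23 members, 48.9%, differed by less than 0.25, beside 34.1% of all genes. The mutant and wild-type arrays did not overlap for 35 of the 47 genes, 74.5%, which is close to the 74.1% of all genes. Both mutant arrays were above both wild-type arrays for 11 members, 23.4%, beside 32.3% of all genes. They were below for 24 members, 51.1%, beside 41.8% of all genes.

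**Figure D1:**
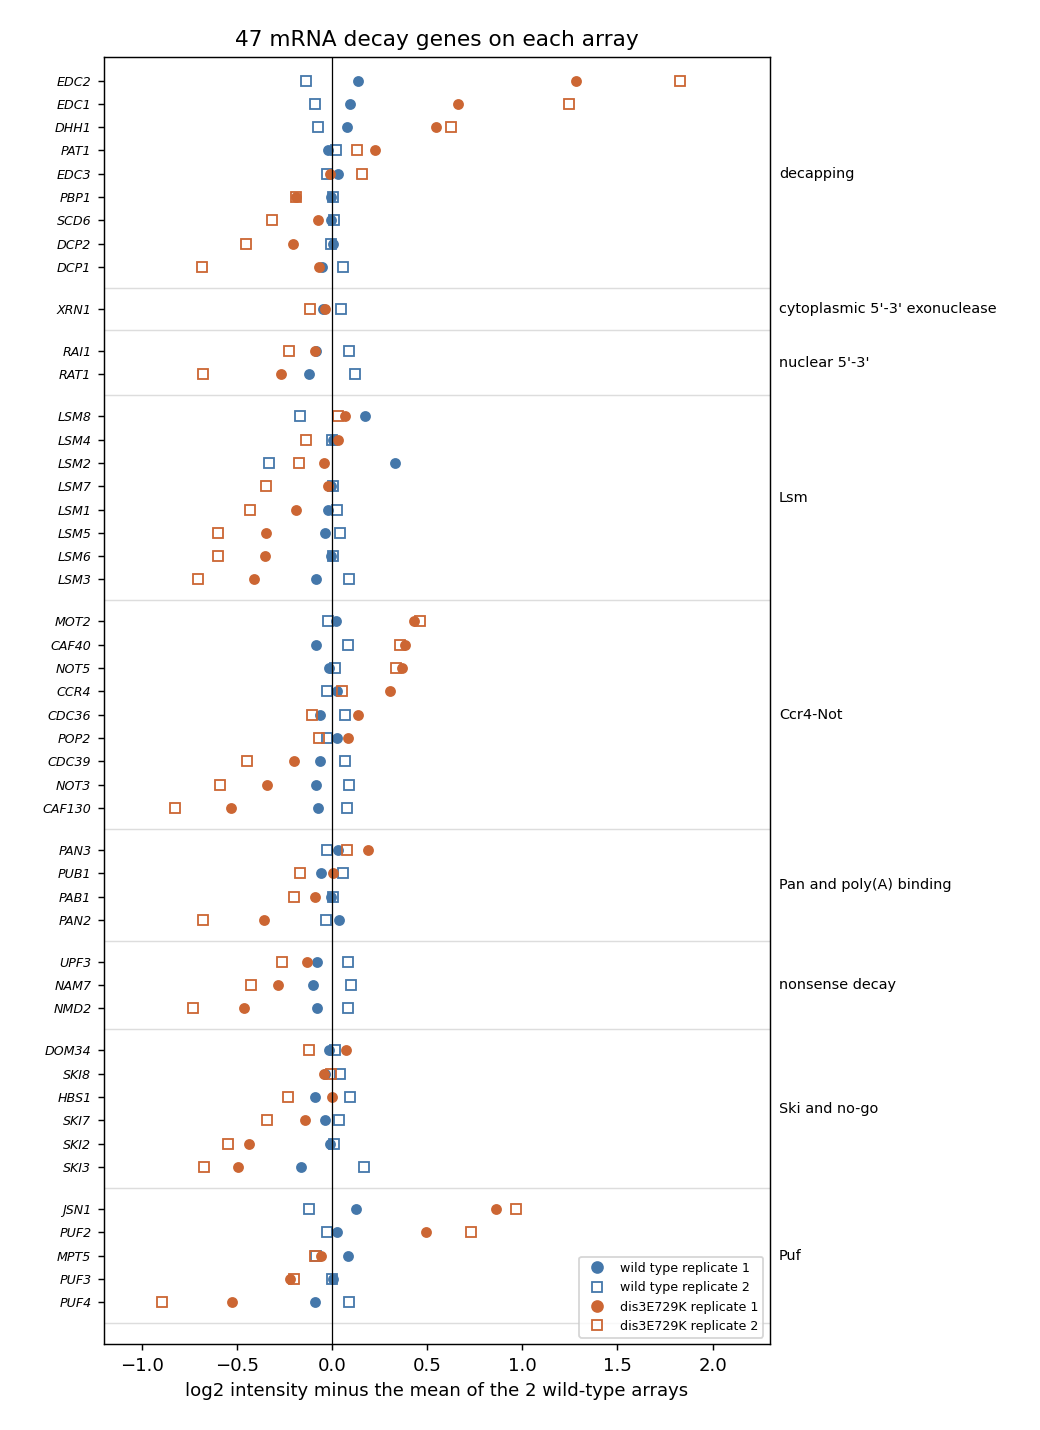
Log2 intensity of each of the 47 genes on each array, as the difference from the mean of the 2 wild-type arrays (horizontal axis), by functional group; circles are replicate 1 cultures and open squares replicate 2 cultures, wild type in blue and dis3E729K in orange. EDC2, EDC1 and JSN1 lie farthest to the right, and PUF4, CAF130 and NMD2 have the lowest values in dis3E729K replicate 2.

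**Figure D2:**
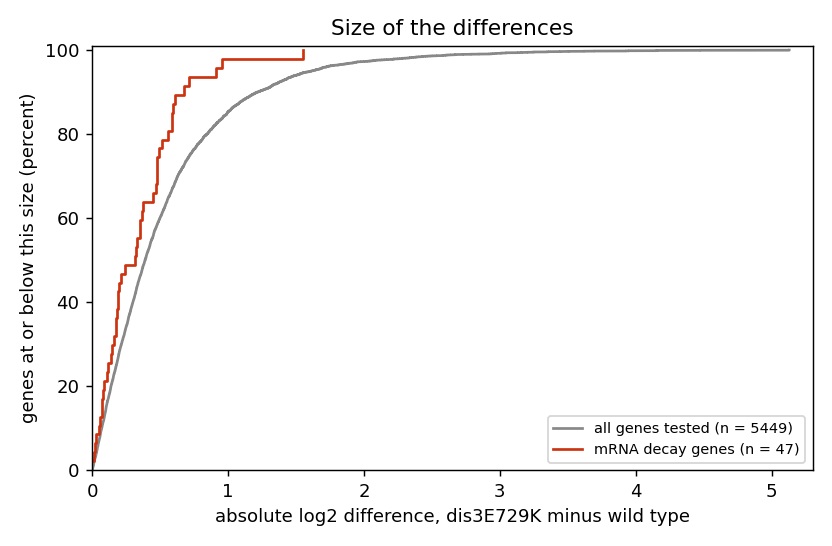
Cumulative share of genes (vertical axis, percent) whose absolute log2 difference between dis3E729K and wild type is at or below the size on the horizontal axis, for the 47 mRNA decay genes and for all 5449 genes tested. The median is 0.31 for the decay genes and 0.39 for all genes, and EDC2 at 1.55 is the largest decay gene.

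Within the decapping group, Dcp2 hydrolyses the cap and Dcp1 is its essential partner. The other members of the group stimulate them, apart from PBP1, which encodes a Pab1-binding protein. EDC2 read 10.31 and 10.04 on the wild-type arrays and 11.46 and 12.01 on the mutant arrays. Both mutant values lay above both wild-type values by at least 1.15 log2 units, and the mean moved from 10.18 ± 0.19 to 11.73 ± 0.39 (SD, n = 2 each), a 2.94-fold difference. The log2 change was 1.55 ± 0.24 (SE), with 1.15 within replicate 1 and 1.96 within replicate 2 (limma, adjusted p = 0.0368). It ranked 209 among 5449 genes by the size of the rise. EDC1, the paralogue of EDC2, read 9.11 and 8.93 in wild type and 9.68 and 10.26 in the mutant. Its groups did not overlap either, and its difference of 0.95 ± 0.24 (SE, 95% interval 0.29 to 1.61) did not pass limma's test (adjusted p = 0.0653).

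DHH1, the DEAD-box helicase that represses translation and promotes decapping, read 11.29 and 11.13 in wild type and 11.76 and 11.83 in the mutant. The difference was 0.59 ± 0.13 (SE) and missed the threshold by a small margin (limma, adjusted p = 0.0529). With an intensity trend in the variance model it passed, at an adjusted p of 0.0469 in limma's test. Under every other alternative that keeps all arrays DHH1 did not pass. Its adjusted p in limma's test then ranged from 0.0510 with median centring to 0.125 with the replicate block. The subunits of the decapping enzyme lay on the other side of zero. DCP2 read 10.04 and 10.03 in wild type and 9.83 and 9.58 in the mutant, a difference of -0.33 ± 0.14 (SE; limma, adjusted p = 0.162). DCP1 read 10.52 and 10.63 in wild type and 10.51 and 9.89 in the mutant. Only dis3E729K replicate 2 stood apart for DCP1, and the difference of -0.38 ± 0.25 (SE) was -0.011 within replicate 1 and -0.74 within replicate 2.

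The remaining members of the decapping group differed little. PAT1, which links the Lsm ring to Dcp2, differed by 0.18, and SCD6, a translation repressor, by -0.19. PBP1, the Pab1-binding protein placed in this group, was nearly identical between cultures of a genotype, at 11.55 and 11.56 in wild type and 11.37 and 11.37 in the mutant, and differed by -0.19 ± 0.11 (SE; limma, adjusted p = 0.272). EDC3, a scaffold of processing bodies, had the smallest statistic of the group: it read 10.86 and 10.80 in wild type and 10.82 and 10.99 in the mutant, and the groups overlapped. Its difference of 0.073 had a 95% interval of -0.28 to 0.43. Of the 9 members of the group 1 rose and 0 fell in limma's test, beside 7.71% and 8.15% of all genes. At an unadjusted p under 0.05, 3 were on the higher side and 0 on the lower, beside 18.1% and 22.6% of all genes. The median difference was 0.073, and the extremes were -0.38 for DCP1 and 1.55 for EDC2.

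**Figure D3:**
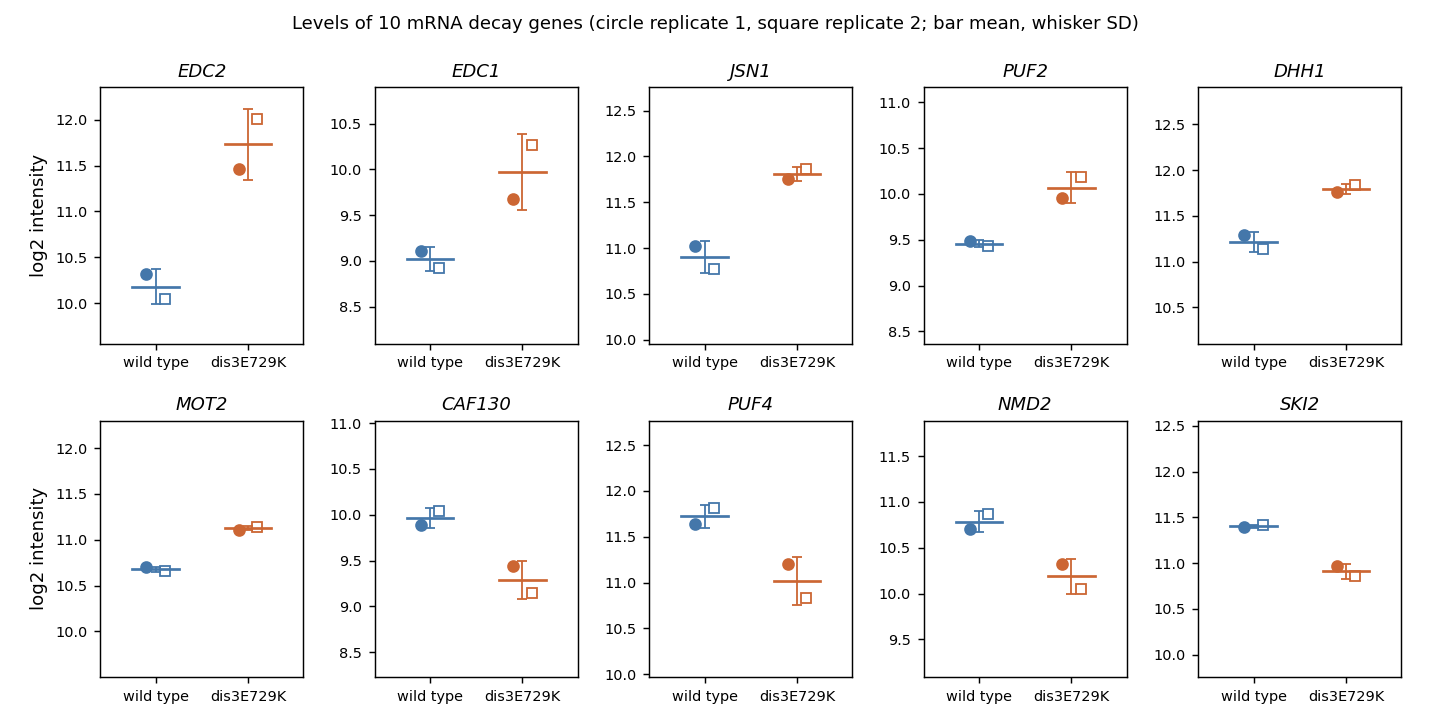
Log2 intensity (vertical axis, each panel spanning 2.8 log2 units) of 10 mRNA decay genes in wild type and dis3E729K; circles are replicate 1 and open squares replicate 2, the bar is the mean and the whisker the SD of n = 2. Only EDC2 and JSN1 passed limma's test, while in all 10 panels the mutant and wild-type arrays do not overlap. These are the 10 members with the largest absolute statistics in that test, so the lack of overlap follows largely from the choice. The arrays do not overlap for 74.1% of all genes.

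None of the 3 genes for the 5' to 3' exonucleases and the Rat1 partner Rai1 passed limma's test, and 0 had an unadjusted p under 0.05. XRN1, which degrades decapped mRNA in the cytoplasm, read 11.76 and 11.86 in wild type and 11.77 and 11.69 in the mutant. These values overlapped, and the difference was -0.079 ± 0.12 (SE) with a 95% interval of -0.41 to 0.25 (limma, adjusted p = 0.653). RAT1, its nuclear counterpart in transcription termination and RNA trimming, read 10.59 and 10.83 in wild type and 10.44 and 10.03 in the mutant. Its difference of -0.48 ± 0.20 (SE) was -0.15 within replicate 1 and -0.80 within replicate 2 (limma, adjusted p = 0.156). RAI1, the partner that stabilises Rat1, read 9.46 and 9.63 in wild type and 9.46 and 9.32 in the mutant and differed by -0.16 ± 0.14 (SE; limma, adjusted p = 0.424).

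The proteins Lsm2 to Lsm7 are shared by 2 rings, in which Lsm1 gives the cytoplasmic ring that binds shortened tails and Lsm8 the nuclear ring that binds U6 RNA. Of the 8 genes, 7 had differences below zero, as did 3016 of all 5449 genes. In limma's test 0 passed, although 3, each lower, had an unadjusted p under 0.05, beside 22.6% of all genes on that side. The median was -0.25. LSM3 read 10.96 and 11.13 in wild type and 10.64 and 10.34 in the mutant. Its difference of -0.56 ± 0.17 (SE) was the largest of the group (limma, adjusted p = 0.0837). LSM6 read 11.37 and 11.38 in wild type and 11.02 and 10.77 in the mutant, a difference of -0.48 ± 0.14 (SE; limma, adjusted p = 0.0858), and LSM5 differed by -0.47. All 3 had both mutant arrays below both wild-type arrays, as did 41.8% of all genes. They are the 3 Lsm genes with an unadjusted p under 0.05, so this follows largely from the choice.

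LSM1 and LSM8, which tell the rings apart, lay at -0.31 and 0.048. LSM8 read 8.81 and 8.47 in wild type and 8.70 and 8.67 in the mutant, so that both mutant values fell between the wild-type values (limma, adjusted p = 0.842). The 95% intervals of LSM1, from -0.70 to 0.078, and of LSM8, from -0.40 to 0.50, overlap, and the difference between the 2 genes was not tested. LSM2 spread most within a genotype: it read 12.36 and 11.70 in wild type and 11.98 and 11.86 in the mutant. LSM4 and LSM7 differed by -0.054 and -0.19.

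The Ccr4-Not complex holds the Ccr4 and Pop2 deadenylases on the Cdc39 (Not1) scaffold, together with the Not proteins. Of its 9 genes 0 passed limma's test, and the median difference was 0.015. At an unadjusted p under 0.05 in that test, MOT2, NOT5 and CAF40 were higher and CAF130 and NOT3 lower. Together they are 55.6% of the group, beside 40.7% of all genes, of which 18.1% were higher and 22.6% lower. MOT2, the ubiquitin ligase also called Not4, read 10.70 and 10.66 in wild type and 11.11 and 11.14 in the mutant. Cultures of each genotype lay close together, and the difference of 0.45 ± 0.12 (SE) was similar within the replicates, at 0.41 and 0.48 (limma, adjusted p = 0.0674). NOT5 differed by 0.35 ± 0.12 and CAF40 by 0.37 ± 0.13 (SE; limma, adjusted p = 0.101 and 0.114).

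CAF130, another subunit, read 9.89 and 10.04 in wild type and 9.44 and 9.14 in the mutant. Its difference of -0.68 ± 0.16 (SE, 95% interval -1.12 to -0.23) was the most negative of the complex (limma, adjusted p = 0.0590). NOT3, the paralogue of NOT5, read 10.67 and 10.84 in wild type and 10.41 and 10.16 in the mutant, a difference of -0.47 ± 0.15 (SE; limma, adjusted p = 0.102). The 95% intervals of NOT3 (-0.89 to -0.044) and NOT5 (0.036 to 0.67) did not overlap; the difference between these paralogues was not itself tested. CDC39 differed by -0.32. The deadenylases were near zero: CCR4 differed by 0.18, and POP2, with the smallest statistic of the group, read 11.36 and 11.31 in wild type and 11.42 and 11.27 in the mutant, a difference of 0.0074 with a 95% interval of -0.34 to 0.35. CDC36, which encodes Not2, differed by 0.015.

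Of the 4 genes for Pan2-Pan3 and for proteins that bind poly(A) or poly(U), 0 passed limma's test. PAN2 alone, on the lower side, had an unadjusted p under 0.05, beside 22.6% of all genes on that side. The median difference was -0.11. PAN2, the catalytic subunit of the other deadenylase, read 11.22 and 11.15 in wild type and 10.83 and 10.51 in the mutant. Its difference of -0.52 ± 0.16 (SE) did not pass limma's test (adjusted p = 0.0913). PAN3, which brings Pan2 to poly(A)-bound Pab1, differed by 0.14. PAB1, the poly(A)-binding protein, read 13.63 and 13.64 in wild type and 13.54 and 13.43 in the mutant, a difference of -0.14 ± 0.12 (SE; limma, adjusted p = 0.407). Array signal may be compressed at such a brightness, which was not measured. PUB1, a binder of poly(U) that protects some messages, read 12.51 and 12.62 in wild type and 12.57 and 12.40 in the mutant; the groups overlapped, and the difference was -0.083 ± 0.14 (SE; limma, adjusted p = 0.668).

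All 3 genes of nonsense-mediated decay had both mutant arrays below both wild-type arrays, as did 41.8% of all genes. In limma's test 0 of 3 passed. NMD2 alone, on the lower side, had an unadjusted p under 0.05, beside 22.6% of all genes on that side. The median difference was -0.35. NMD2, which encodes Upf2, read 10.70 and 10.87 in wild type and 10.32 and 10.05 in the mutant. Its difference was -0.60 ± 0.16 (SE), with -0.38 and -0.81 within the replicates (limma, adjusted p = 0.0697). NAM7, the Upf1 helicase, read 11.62 and 11.82 in wild type and 11.43 and 11.29 in the mutant, a difference of -0.35 ± 0.14 (SE; limma, adjusted p = 0.143). UPF3 read 9.55 and 9.72 in wild type and 9.50 and 9.37 in the mutant and differed by -0.20 ± 0.14 (SE; limma, adjusted p = 0.321).

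The proteins Ski2, Ski3 and Ski8 form the complex that threads RNA into the cytoplasmic exosome, and Ski7 joins it to the exosome. None of the 6 genes of this group passed limma's test. SKI2 and SKI3, both lower, had an unadjusted p under 0.05, beside 22.6% of all genes on that side. The differences of all 6 were below zero, as were those of 3016 of all 5449 genes. For SKI8, HBS1 and DOM34 the mutant and wild-type arrays overlapped. SKI2, the helicase, read 11.39 and 11.41 in wild type and 10.97 and 10.85 in the mutant. The cultures of each genotype agreed closely, and the difference of -0.49 ± 0.12 (SE) was -0.43 and -0.56 within the replicates (limma, adjusted p = 0.0621). SKI3, the scaffold, read 10.40 and 10.73 in wild type and 10.07 and 9.89 in the mutant, a difference of -0.59 ± 0.17 (SE; limma, adjusted p = 0.0839).

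SKI8, whose protein also acts in meiotic recombination, read 10.84 and 10.92 in wild type and 10.83 and 10.87 in the mutant. Its difference was -0.027, with a 95% interval of -0.35 to 0.30. That interval overlaps those of SKI2 (-0.82 to -0.16) and SKI3 (-1.06 to -0.11), and the difference between these genes was not tested. SKI7 differed by -0.24. HBS1, a GTPase related to Ski7, differed by -0.12. DOM34, the partner of Hbs1, read 10.96 and 10.996 in wild type and 11.05 and 10.86 in the mutant, and its difference of -0.024 ± 0.13 (SE) had the smallest statistic of the group (limma, adjusted p = 0.904).

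Of the 5 Puf genes 1 rose and 0 fell in limma's test, beside 7.71% and 8.15% of all genes. At an unadjusted p under 0.05, 2 were on the higher side and 1 on the lower, beside 18.1% and 22.6% of all genes. JSN1, whose protein binds messages for membrane proteins as that of PUF2 does, read 11.02 and 10.77 in wild type and 11.76 and 11.87 in the mutant. Both mutant arrays lay above both wild-type arrays by at least 0.74 log2 units, and the mean moved from 10.90 ± 0.17 to 11.81 ± 0.076 (SD, n = 2 each), a 1.88-fold difference. The log2 change was 0.91 ± 0.15 (SE), with 0.74 and 1.09 within the replicates (limma, adjusted p = 0.0389). PUF2, its paralogue, read 9.48 and 9.43 in wild type and 9.95 and 10.19 in the mutant. Its difference of 0.61 ± 0.14 (SE, 95% interval 0.23 to 1.00) did not pass limma's test (adjusted p = 0.0562).

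The other 3 Puf genes had differences below zero. PUF4, whose protein binds messages for nucleolar proteins and histones, read 11.63 and 11.81 in wild type and 11.20 and 10.83 in the mutant. Its difference of -0.71 ± 0.18 (SE) was the most negative of all 47 genes and did not pass limma's test (adjusted p = 0.0660). PUF3, which binds messages for mitochondrial proteins, varied least of the group between cultures, at 9.31 and 9.30 in wild type and 9.08 and 9.10 in the mutant, and differed by -0.21 ± 0.11 (SE; limma, adjusted p = 0.235). MPT5, also called Puf5, read 11.19 and 11.02 in wild type and 11.05 and 11.02 in the mutant, with overlapping groups and a difference of -0.072 ± 0.13 (SE; limma, adjusted p = 0.699).

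The cultures of a genotype were not equally far from the other genotype. The array of dis3E729K replicate 2 lay farther from the wild-type mean than that of replicate 1 for 37 of the 47 genes, 78.7%, beside 75.8% of all genes. Wild type replicate 1 lay nearer to the mutant mean than wild type replicate 2 for 37 of 47 genes, 78.7%, beside 62.0% of all genes, and 32 members, 68.1%, had both features, beside 49.8% of all genes. The difference had the same sign within both replicate numbers for 37 of 47 members, 78.7%, beside 79.8% of all genes. Its median was -0.053 within replicate 1 and -0.20 within replicate 2, beside -0.041 and -0.11 over all genes. Among the groups, the Ccr4-Not genes differed from this: dis3E729K replicate 2 was the farther array for 4 of its 9 genes.

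**Figure D4:**
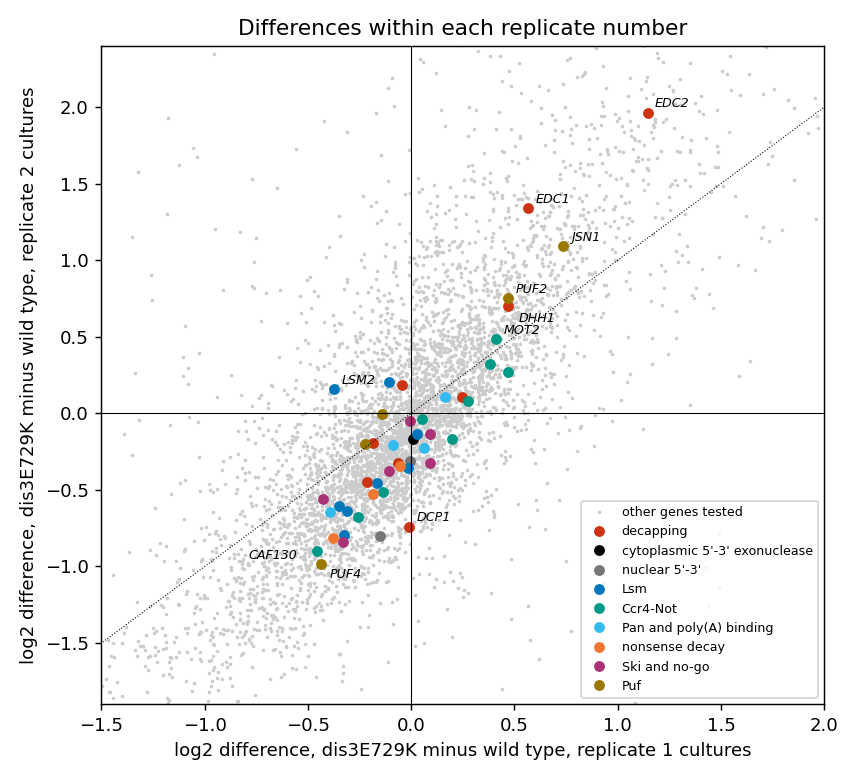
Log2 difference between dis3E729K and wild type within the replicate 1 cultures (horizontal axis) and within the replicate 2 cultures (vertical axis) for the 47 genes, coloured by group, over the other genes tested in grey; genes beyond the axes are not drawn and the dotted line marks equal differences. EDC2 lies at 1.15 and 1.96, JSN1 at 0.74 and 1.09, and LSM2 at -0.37 and 0.16 has opposite signs.

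Without 1 array, a genotype holds 1 culture, which is assumed to vary like those of the other genotype. The calls over all genes then went from 864 to 249 or 11 when the first or second wild-type array was dropped, and to 667 or 0 when the first or second mutant array was, so that a lost call among the members says little about them. When the first wild-type array, the second wild-type array or the second mutant array was left out, no member was called. When the first mutant array was left out, EDC1 and EDC2 passed and JSN1 did not. With the replicate number as a block neither EDC2 nor JSN1 was called in limma's test (adjusted p = 0.0509 and 0.0664). That fit called 343 of all genes, 6.29%, instead of 864, and the calls of both genes depended on leaving the block out. The log2 change of EDC2 ranged from 1.28 to 1.83 and that of JSN1 from 0.79 to 1.04 when single arrays were left out.

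Beyond the 47, a list of 32 other genes of mRNA turnover and translational repression had 31 with a probe set. Of these 4 rose and 1 fell in limma's test, 16.1%, which is near the 15.9% of all genes. RNY1, a vacuolar ribonuclease of the T2 family, rose by 2.03 ± 0.41 (SE), from 8.42 and 7.74 to 9.66 and 10.56 (limma, adjusted p = 0.0466). NGL3, a homologue of Ccr4, read 6.82 and 6.74 in wild type and 7.99 and 8.83 in the mutant and rose by 1.63 ± 0.31 (SE; limma, adjusted p = 0.0445). DCS1, the scavenger enzyme that hydrolyses the cap left after 3' to 5' decay, read 10.20 and 9.72 in wild type and 11.09 and 11.52 in the mutant and rose by 1.35 ± 0.25 (SE; limma, adjusted p = 0.0436). All 3 had both mutant arrays above both wild-type arrays, with the highest value in dis3E729K replicate 2. Of all genes 32.3% had both mutant arrays above, and for these 3 it follows largely from their having passed the test. DCS2, the paralogue of DCS1 and named after its values were seen, had a larger difference of 2.05 ± 0.58 (SE) that did not pass limma's test (adjusted p = 0.0777).

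CTH1, a zinc finger protein that speeds the decay of messages for iron-using proteins, read 10.27 and 10.33 in wild type and 11.12 and 11.34 in the mutant and rose by 0.93 ± 0.14 (SE; limma, adjusted p = 0.0364). The 1 gene of this list that fell was VTS1, the yeast Smaug homologue, which binds hairpins in messages and recruits the deadenylase. VTS1 read 10.80 and 10.92 in wild type and 8.94 and 8.34 in the mutant, or 4.65-fold less, and changed by -2.22 ± 0.24 (log2, SE; limma, adjusted p = 0.0336). It was called with the replicate block too, at an adjusted p of 0.0372 in limma's test, while the 4 rises were not, at 0.0516 to 0.0638. The fit with the block called 6.29% of all genes. DXO1, a nuclease that removes faulty caps, read 10.05 and 9.95 in wild type and 9.47 and 9.53 in the mutant. SLH1, a helicase related to Ski2, read 10.47 and 10.48 in wild type and 10.03 and 9.82 in the mutant. Their groups did not overlap, which was so for 74.1% of all genes. The differences of -0.50 ± 0.12 for DXO1 and -0.55 ± 0.14 for SLH1 (SE) did not pass limma's test (adjusted p = 0.0616 and 0.0636). With 1 array left out at a time, where calls over all genes ranged from 0 to 667, between 0 and 2 genes of the list rose and 0 or 1 fell.

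Of 10 transcripts known as targets of these factors, 2 fell and 0 rose in limma's test, beside 8.15% and 7.71% of all genes. At an unadjusted p under 0.05, 3 were on the lower side and 0 on the higher, beside 22.6% and 18.1% of all genes. HO, the mating type endonuclease whose message Mpt5 represses, read 11.44 and 11.56 in wild type and 10.07 and 9.24 in the mutant, a log2 change of -1.84 ± 0.31 (SE; limma, adjusted p = 0.0412). HO is also transcribed in a short window of the cell cycle. PPR1, the activator of uracil synthesis genes and a substrate of nonsense-mediated decay, read 9.90 and 9.99 in wild type and 8.66 and 8.002 in the mutant, a change of -1.62 ± 0.26 (SE; limma, adjusted p = 0.0377). Both were also called with the replicate block, each at an adjusted p of 0.0475. The factors named here as acting on these messages did not pass limma's test: MPT5 differed by -0.072, and NAM7, NMD2 and UPF3 by -0.35, -0.60 and -0.20. Other regulators of HO and PPR1 were not considered.

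RPS28B, a ribosomal protein gene whose message is decapped through Edc3, read 13.31 and 13.40 in wild type and 12.14 and 10.96 in the mutant. The difference of -1.80 ± 0.42 (SE) did not pass limma's test (adjusted p = 0.0580), and the mutant cultures lay 1.18 log2 units apart. YRA1, an export factor whose pre-mRNA is the other known Edc3 substrate, read 12.48 and 12.52 in wild type and 12.77 and 12.73 in the mutant, a difference of 0.25 ± 0.12 (SE; limma, adjusted p = 0.186). The remaining nonsense decay substrates in the list did not pass, at 0.027 for CPA1, -0.25 for ALR1, 0.15 for EST3 and -0.19 for STN1. COX17, the classic Puf3 target, differed by -0.16 and HHT1, a histone gene bound by Puf4, by -0.074. With either wild-type array or the second mutant array left out, 0 of the 10 passed limma's test, in fits that called 249, 11 and 0 of all genes, and with the first mutant array left out 3 fell, RPS28B among them.

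**Figure D5:**
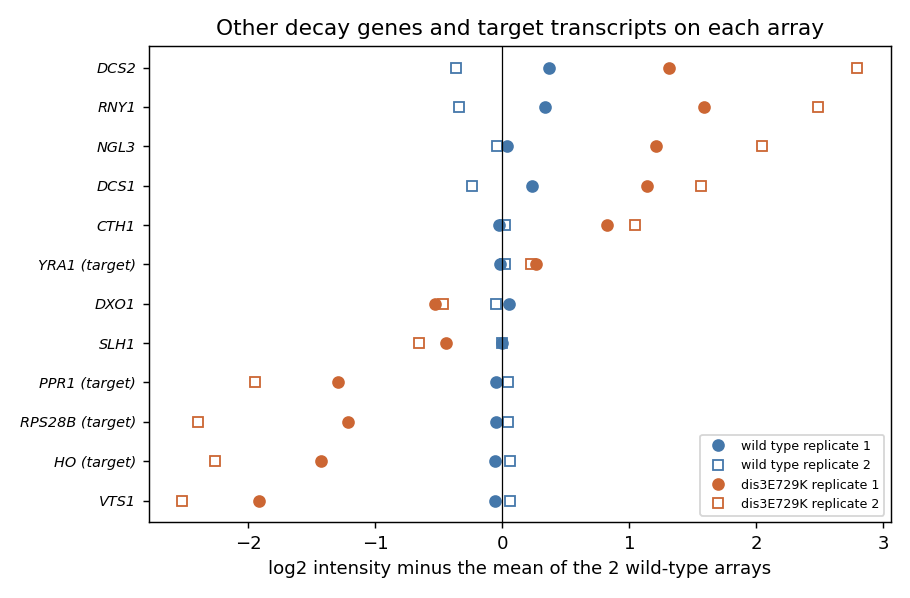
Log2 intensity on each array, as the difference from the mean of the 2 wild-type arrays (horizontal axis), for other mRNA decay genes and for known target transcripts; symbols are as in the plot of the 47 genes. VTS1, HO, PPR1 and RPS28B lie at or below -1.21 on both mutant arrays, and DCS2, RNY1, NGL3 and DCS1 at or above 1.14.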

How the data were processed

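The authors deposited log2 intensities made with RMA; the submitters' processing notes name Expression Console and Transcriptome Analysis Console of Affymetrix, without versions. In RMA the arrays are forced to 1 common distribution, so a shift of all mRNA cannot be seen. The table held 10928 probe sets. Through the platform's annotation and RefSeq identifiers of assembly R64, 5498 were tied to 1 S. cerevisiae gene; for 47 genes with several sets, none of them a member, the set with the highest mean over the 4 arrays was kept, which left 5449 genes. Coordinates are left out because the build is not given in the sources used here. Genotype and replicate of each culture were read from its title, and the labels call the cultures biological replicates.

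The genotypes were tested against each other in R 4.3.3 with lmFit and eBayes of limma 3.58.1, without a block or a filter, and p-values were adjusted over all 5449 genes (Benjamini-Hochberg, threshold 0.05). P-values rest on 2 cultures per genotype, with 2 residual and 2.18 prior degrees of freedom. Intervals are 95% intervals of the moderated statistic. All 47 members lay above a background of 4.06, the 95th percentile of probe sets for other species. The procedure was tested on simulated data. Members, sub-groups, further lists and tests were chosen with earlier results of these data known. Values on every array and full statistics are given for members past the threshold and, in each sub-group, for the 2 members with the largest and the 1 with the smallest absolute moderated statistic. In the other lists they are given for genes past the threshold and the next 2. Further members are shown with fewer values, and DCP1, DCP2, EDC1, NOT3, LSM2, PBP1, PUF3, PUF4 and SKI8 were given per array after their values were seen. Promoter and protein sequences were not analysed here. Alternatives were the replicate block, trend and robust eBayes, median centring, quantile normalization over genes, dim genes left out, averaged or non-cross-hybridising probe sets, every probe set except controls, and each array left out. Plots were drawn in Python 3.11.15 with matplotlib 3.10.9.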

Additional observations from a re-analysis of the deposited data

How the results depend on the processing

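The count of 2 members that rose was the same under 7 of the 9 alternatives that keep all arrays. It was 3 with an intensity trend and 0 with the replicate block, which called 343 of all genes, 6.29%, instead of 864. When single arrays were left out it ranged from 0 to 2, while the calls over all genes ranged from 0 to 667 instead of 864, so these fits say little about the stability of single calls. The count of members that fell was 0 under all 13 alternatives in limma's test. The median difference of the members ranged from -0.14 to -0.12 over the alternatives that keep all arrays, and from -0.20 to -0.056 without single arrays. In the list of other decay genes the count of rises was 0 with the replicate block and 0 to 2 without single arrays, and the count of falls 0 to 1 without single arrays. The count of target transcripts that fell was 0 to 3 without single arrays. Over the alternatives that keep all arrays, other than the block, the adjusted p in limma's test ranged from 0.0297 to 0.0378 for EDC2 and from 0.0351 to 0.0401 for JSN1. Of all 47 members, 10 changed sign without at least 1 array and 0 under the alternatives that keep all arrays, and 0 of the 10 passed the threshold in any fit: CDC36, DOM34, EDC3, LSM2, LSM4, LSM8, MPT5, POP2, PUB1 and SKI8. Among the 24 members and 11 other genes that the naming rule chose, the sign changed in 7 cases: EDC3, DOM34 and PUB1 without dis3E729K replicate 2, LSM8 and POP2 without wild type replicate 2, POP2 without dis3E729K replicate 1, and MPT5 without wild type replicate 1. Over the 4 arrays left out, EDC3 ranged from -0.013 to 0.16, DOM34 from -0.12 to 0.073, PUB1 from -0.17 to 0.0024, LSM8 from -0.12 to 0.22, POP2 from -0.067 to 0.082 and MPT5 from -0.16 to 0.012. The causes were not tested. The labels do not say what a replicate number shares, so the block is an alternative here and not the main design. Across genes, deviations from the group means of same-numbered cultures correlated at r = 0.084. The mating type genes split by replicate number in both genotypes, and whether other genes share such an effect was not tested. With 4 arrays, the median SE of a member's difference was 0.14 log2 units, and differences of that size cannot be told from the spread between cultures. Larger ones also did not pass limma's test, such as 0.59 ± 0.13 for DHH1 and -0.71 ± 0.18 for PUF4 (SE, adjusted p = 0.0529 and 0.0660).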
